A study of Mus musculus with 2 samples.

Results

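The cells described here are 21 taste cells from the fungiform papillae (FP) of the tongue, divided by whether they held the mRNA of Arc. They come from adult alpha-gustducin-GFP mice on a C57BL/6J background, in which green fluorescent protein marks cells that use the α-gustducin gene (Gnat3). GFP-positive cells were sorted, captured singly and sequenced, giving 1 library of 29 FP barcodes and 1 library of 61 barcodes from the circumvallate papilla (CV). No barcode was shared by the libraries. Of the 29 FP barcodes, 21 had more than 500 genes and Gnat3 above 0.9 on the scale ln(1 + counts per 10000). CPM stands for a gene's counts scaled to a cell total of 1000000. Cells with Arc at 50 CPM or more were called Arc-positive, which took 10 cells, and the other 11 cells were called Arc-negative. The Arc-positive share was 47.6% of the kept cells (exact Clopper-Pearson 95% interval 25.7 to 70.2%). Intervals on shares of cells cover the drawing of cells within 1 library only and do not compare the sides. Both sides share genotype, strain, age, dissociation, sort and library, and the number of mice behind the library is not given in the sources used here.

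Arc is an immediate early gene: its transcription starts within minutes of strong stimulation without new protein synthesis, and in neurons its mRNA travels to active synapses. The Arc protein acts with endocytic proteins to remove glutamate receptors from the synapse and forms particles that resemble retroviral capsids. In taste buds, α-gustducin is found in type II cells, which detect sweet, bitter or umami compounds through receptors coupled to a G protein, phospholipase Cβ2, calcium release from stores and the channel Trpm5. A rise of intracellular calcium and the ERK kinases are among the usual inducers of immediate early genes in other excitable cells.

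Arc lies at chr15:74669083-74672570 on the minus strand (mm10, GENCODE). The sides were chosen by the Arc level and the kept cells by the Gnat3 level, so both are given as a description. Arc ranged over 125, 278 and 1616 CPM (lowest, median and highest) in the 10 Arc-positive cells, against 0, 2.57 and 26.6 CPM in the 11 Arc-negative cells. Pooled over cells, Arc was at 488 CPM in Arc-positive and 9.24 CPM in Arc-negative cells. In 5 of the Arc-negative cells there was no Arc count at all. The cell just inside the limit had 154 Arc counts (125 CPM) and the cell just outside it had 85 (26.6 CPM), and no cell lay between them. Any limit between those values, 100 CPM included, therefore gives the same split.

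Depth and RNA quality moved with the split. Arc-positive cells held 579496 to 1688865 counts (median 1186004), against 193718 to 3190340 counts (median 642821) in Arc-negative cells. Mitochondrial genes took 8.17 to 15.1% of counts (median 10.8%) in Arc-positive cells and 9.37 to 68.0% (median 19.7%) in Arc-negative cells, of which 5 of 11 exceeded 20%. All 10 Arc-positive cells and 6 of 11 Arc-negative cells held at least 500000 counts. These 6 are called the deep Arc-negative cells below. The deepest of them, with 3190340 counts, made up 29.5% of the Arc-negative pool. It was also the cell just outside the Arc limit, with 85 of the 100 Arc counts of its side. The part of depth and mitochondrial share in the differences below was not tested, and counts in the deep cells are given for the members described most fully.

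**Figure D1:**
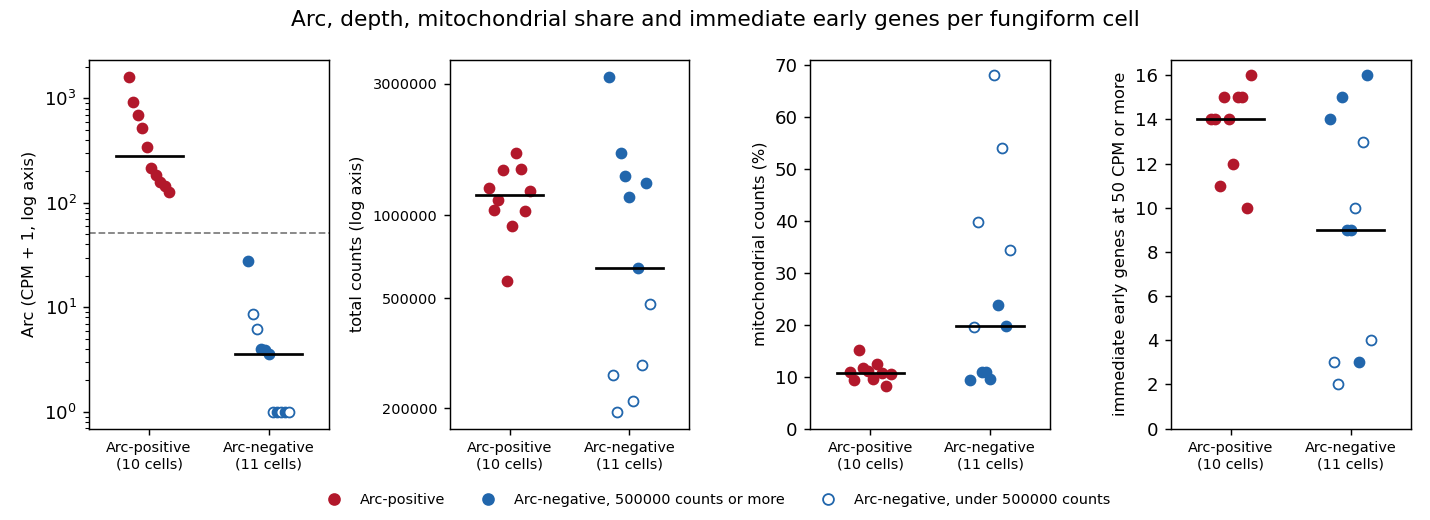
Arc (CPM + 1, log axis), total counts (log axis), mitochondrial counts (%) and the number of immediate early genes at 50 CPM or more, for each of 10 Arc-positive and 11 Arc-negative cells. Points are cells, black bars are medians, open points are cells under 500000 counts, and the dashed line is the Arc limit of 50 CPM. The Arc-positive cells sit together in depth and mitochondrial share, and the open Arc-negative cells make up the shallow end.

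Type II markers were present on both sides. Gnat3 chose the kept cells, so it is left out of the sum of the other 9 listed type II markers, which was 11448 to 25614 CPM in Arc-positive cells and 4315 to 28339 CPM in Arc-negative cells. Trpm5 was below 50 CPM in 1 Arc-positive cell, at 10.5 CPM, and in 2 Arc-negative cells, at 3.79 and 9.45 CPM. Of 8 type III markers, Snap25 and Ncam1 were measured and neither reached 50 CPM in any cell; the other 6 were not analysed here. Summed markers of immune cells, fibroblasts and Schwann cells reached at most 4.37 CPM in an Arc-positive cell and 10.5 CPM in an Arc-negative cell, and Ptprc, Cd74, Lyz2 and S100b were at 0 in all 21 cells. The sum of 15 listed keratinocyte markers was 100 to 400 CPM (median 143 CPM) in Arc-positive cells and 90.9 to 538 CPM (median 143 CPM) in Arc-negative cells. Krt13, the keratin of the lingual epithelium, was at 25.1 to 44.9 CPM in Arc-positive and 15.2 to 82.6 CPM in Arc-negative cells. The type I marker Entpd2, an ectonucleotidase of glial-like taste cells, was on in 1 Arc-positive cell at 160 CPM and was at 0 in all Arc-negative cells.

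All cells of a side share 1 library and are not replicates, so no test was made. A gene is called on in a cell when it reaches 50 CPM, a limit set with earlier results of these data in view. Ratios are log2((pooled CPM + 10 in Arc-positive)/(pooled CPM + 10 in Arc-negative)), a scale that understates the change of low genes, and a gene is counted as higher or lower when it is at least 2-fold apart. Among the 9816 genes with at least 10 CPM on either side, 2665 (27.1%) were higher and 2275 (23.2%) lower in Arc-positive cells. Counts of list members below are read against those shares. Apart from Arc, no gene had ranges that did not overlap between the sides (0% of genes).

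Immediate early genes were on in more of the Arc-positive cells, while their pooled levels mostly lay within 2-fold. Of 30 listed, 23 reached 10 CPM, and 4 of those 23 (17.4%) were higher and 0 lower, below the 27.1% of all genes that were higher. Without the Gnat3 limit 4 of 26 were lower and 3 higher, beside 22.5% and 26.9% of all genes. At an Arc limit of 200 CPM 4 of 24 were lower and 5 higher, beside 33.4% and 21.8% of all genes. Without the highest cell of each side for each gene 2 of 17 were lower, beside 24.8% of all genes. The number lower was 1 of 23 at an Arc limit of 10 CPM (20.8% of all genes). It was 1 of 24 without the cell with the highest total on each side (24.1% of all genes). The median log2 ratio of the 23 was 0.26, against 0.08 over all genes. Without the cell with the highest total on each side the median of the list was 0.48, against 0.21 over all genes. Nr4a1, Zfp36, Fosl2 and Maff were the 4 higher in the main split, and Fosl2 and Maff each rested on a single Arc-positive cell.

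In the count of genes on per cell the sides differed more. Arc-positive cells had 10 to 16 of the 30 listed immediate early genes on (median 14), against 2 to 16 (median 9) in Arc-negative cells. All 10 Arc-positive cells had 10 or more on, against 5 of 11 Arc-negative cells. The limit of 10 is the lowest Arc-positive count, so that all Arc-positive cells reach it follows from the limit. In the 6 deep Arc-negative cells the counts were 14, 15, 9, 9, 3 and 16, so that 3 of 6 reached 10. After each cell was thinned to 193718 counts, the total of the shallowest cell, Arc-positive cells had 10 to 16 on (median 14) and Arc-negative cells 2 to 17 (median 9). After thinning, the 2 Arc-negative cells with the fewest on had 193718 and 642821 counts in full. The groups overlapped in every version of this count.

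The count of all genes on per cell moved the same way. A median of 2579 genes was on in Arc-positive cells, against 1559 in Arc-negative cells. After thinning the medians were 2573.5 genes in Arc-positive and 1583 genes in Arc-negative cells. Of all 9816 genes, 66.7% were on in a larger share of Arc-positive than of Arc-negative cells. For the immediate early genes this was 22 of 23 (95.7%). With 10 against 11 cells, an equal number of cells on counts as a larger Arc-positive share. This was so for Fosb, Atf3, Ier3, Klf6 and Jund. Fosl2, Egr4, Csrnp1 and Maff were on in a single Arc-positive cell and in no Arc-negative cell. Set against the deep Arc-negative cells alone, the direction over all genes turned: 4389 genes (44.7%) were on in a larger share of Arc-positive cells and 4801 (48.9%) in a smaller one. Of the immediate early genes, 17 of 23 (73.9%) were on in a larger share of Arc-positive cells and 5 (21.7%) in a smaller one.

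**Figure D2:**
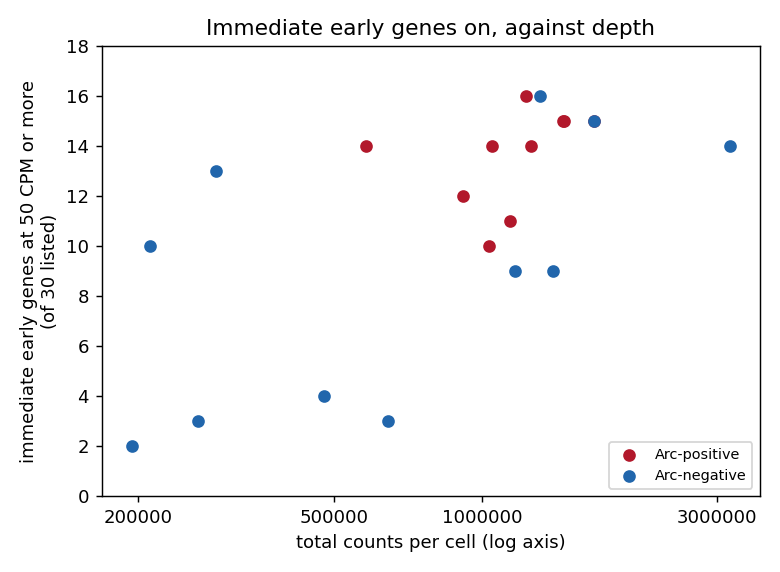
Number of the 30 listed immediate early genes at 50 CPM or more (vertical axis) against total counts per cell (log axis), for 10 Arc-positive and 11 Arc-negative cells. Arc-positive cells lie between 10 and 16 genes, and Arc-negative cells spread from 2 to 16, with both high and low counts among shallow and deep cells.

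Nr4a1, the orphan nuclear receptor also known as Nur77, had the highest log2 ratio of pooled levels among immediate early genes that were on in more than 1 cell of each side. By share of cells on, and by log2 ratio without the highest cell of each side (2.44, against 2.40 for Nr4a1), Zfp36 differed more. Nr4a1 ranged over 0.876, 140 and 1794 CPM in Arc-positive cells, against 0, 0 and 322 CPM in Arc-negative cells. It was on in 6 of 10 Arc-positive cells and in 3 of 11 Arc-negative cells, all 3 of them deep. There was no Nr4a1 count in 6 Arc-negative cells, while each Arc-positive cell had at least 1. The pooled level was 472 CPM in Arc-positive and 131 CPM in Arc-negative cells, a ratio of 3.60 (exact conditional 95% interval 3.40 to 3.82, counting error only) and a log2 ratio of 1.77. Of the 16 other settings tried, 3 cannot move the ratio of a single gene (an Arc limit of 100 CPM and both changes to the filter on low values). Under the other 13 the log2 ratio of Nr4a1 was 1.53 to 3.05.

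Zfp36, which encodes tristetraprolin, a protein that speeds the decay of AU-rich mRNAs, was on in 9 of 10 Arc-positive and 4 of 11 Arc-negative cells. It ranged over 1.73, 714 and 1179 CPM in Arc-positive cells and over 0, 6.97 and 1004 CPM in Arc-negative cells. The 4 Arc-negative cells that had it on were all deep, so 2 of the 6 deep cells lacked it. Pooled levels were 752 CPM in Arc-positive and 235 CPM in Arc-negative cells, a log2 ratio of 1.64. It was under 2-fold in 2 of the 13 settings, at 0.59 without the Gnat3 limit and at 0.63 with an Arc limit of 200 CPM.

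The promoters of these genes are shown because Arc, Nr4a1 and Fos are textbook targets of factors activated by calcium and ERK. Each window is the 250 bases before the gene start in RefSeq (GRCm38.p6), written 5′ to 3′ on the gene's strand: Nr4a1 at chr15:101266596-101266845 (plus), Fos at chr12:85473640-85473889 (plus) and Zfp36 at chr7:28379229-28379478 (minus). Capitals mark the CREB half-site TGACG, searched on both strands (CGTCA is its reverse), in Nr4a1 and Fos, and a CArG box, the motif of serum response factor, in Zfp36.
Nr4a1: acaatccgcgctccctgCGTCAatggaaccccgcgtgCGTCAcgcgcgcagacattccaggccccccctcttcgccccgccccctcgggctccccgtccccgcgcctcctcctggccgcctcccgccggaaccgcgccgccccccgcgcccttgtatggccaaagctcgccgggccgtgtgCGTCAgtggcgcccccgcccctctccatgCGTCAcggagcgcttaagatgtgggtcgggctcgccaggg
Fos: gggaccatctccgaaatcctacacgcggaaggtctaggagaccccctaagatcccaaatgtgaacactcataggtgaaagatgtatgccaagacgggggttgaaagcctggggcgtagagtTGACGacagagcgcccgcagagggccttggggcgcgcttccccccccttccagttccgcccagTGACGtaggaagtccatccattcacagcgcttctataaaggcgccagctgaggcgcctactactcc
Zfp36: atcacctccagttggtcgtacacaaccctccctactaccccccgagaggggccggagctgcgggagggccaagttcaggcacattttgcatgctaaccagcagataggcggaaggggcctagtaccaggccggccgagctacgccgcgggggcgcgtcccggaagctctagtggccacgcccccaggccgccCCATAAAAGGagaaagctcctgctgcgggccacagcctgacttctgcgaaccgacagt

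The Nr4a1 window held 4 half-sites, starting 40, 69, 213 and 233 bases before the gene start, and the Fos window held 2, at 66 and 129 bases. The Zfp36 window had no half-site, and its CArG box started 58 bases before the gene start. Of 32851 mouse promoters of the same length, 17.8% held TGACG and 1.47% a CArG box. Of the 23 measured immediate early genes, 19 had an entry, with 28 promoter windows in all because some genes have several. Counted by window, 19 of the 28 held TGACG, 3 the full TGACGTCA (1.55% of all promoters, and overlapping the half-site), 8 the Egr motif GCGNGGGCG (4.70%), 5 a CArG box and 1 the AP-1 motif TGANTCA (6.75%). Windows of 1 gene can overlap and share a match. These matches describe letters in a window and are not measured binding sites.

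Fos, the AP-1 subunit most used as a mark of recent activity, did not separate the sides by pooled level. It ranged over 857, 1334 and 3037 CPM in Arc-positive cells and over 0, 799 and 3505 CPM in Arc-negative cells. It was on in all 10 Arc-positive cells and in 8 of 11 Arc-negative cells, 5 of 6 among the deep ones. Pooled levels were 1587 CPM in Arc-positive and 1537 CPM in Arc-negative cells, a log2 ratio of 0.05. The highest Fos level of all 21 cells, 3505 CPM, was in an Arc-negative cell with 0 Arc counts, and the next highest, 3376 CPM, was in another with 0 Arc counts.

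Egr1, a zinc finger transcription factor induced with Arc in neurons, was on in all 10 Arc-positive and in 7 of 11 Arc-negative cells. It ranged over 659, 1640 and 4397 CPM in Arc-positive cells and over 0, 392 and 2619 CPM in Arc-negative cells. Pooled Egr1 was at 2046 CPM in Arc-positive and 1382 CPM in Arc-negative cells, a log2 ratio of 0.56, which was -0.057 at the Arc limit of 200 CPM. Of the 6 deep Arc-negative cells, 4 had Egr1 on. Ier2, another early-response nuclear protein, was on in the same numbers of cells, 10 of 10 Arc-positive and 7 of 11 Arc-negative cells (5 of the 6 deep ones), with pooled levels of 1422 CPM in Arc-positive and 1116 CPM in Arc-negative cells. The antiproliferative gene Btg2 was on in 10 of 10 Arc-positive and 9 of 11 Arc-negative cells, and the AP-1 subunit Jund in 10 of 10 Arc-positive and 10 of 11 Arc-negative cells.

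For several members, Egr2, Dusp1 and Klf4 among them, the share of cells and the pooled level ran in opposite directions. Junb, Egr3 and Jun were higher in Arc-positive cells by both measures. Egr2 was on in 8 of 10 Arc-positive and 4 of 11 Arc-negative cells, yet its pooled level was 236 CPM in Arc-positive and 309 CPM in Arc-negative cells. It was on in 3 of the 6 deep Arc-negative cells. Its log2 ratio of -0.38 became 0.68 when cells were weighted equally. Dusp1, the phosphatase that inactivates MAP kinases, was likewise on in 8 of 10 Arc-positive and 4 of 11 Arc-negative cells, at 242 CPM in Arc-positive and 276 CPM in Arc-negative cells. It too was on in 3 of the 6 deep cells, and its log2 ratio of -0.18 became 0.37 when cells were weighted equally. Junb, an AP-1 subunit, was on in 8 of 10 Arc-positive and 6 of 11 Arc-negative cells, with 195 CPM in Arc-positive and 151 CPM in Arc-negative cells (log2 ratio 0.35, and -0.62 at the Arc limit of 200 CPM). Egr3 was on in 6 of 10 Arc-positive and 4 of 11 Arc-negative cells, with 187 CPM in Arc-positive and 139 CPM in Arc-negative cells (log2 ratio 0.41, and -0.12 at the Arc limit of 10 CPM).
Jun was on in 9 of 10 Arc-positive and 8 of 11 Arc-negative cells, at pooled levels of 925 CPM in Arc-positive and 770 CPM in Arc-negative cells. Klf4, a factor of epithelial differentiation, was on in 9 of 10 Arc-positive and 8 of 11 Arc-negative cells, with 510 CPM in Arc-positive and 680 CPM in Arc-negative cells. Klf6 was on in 8 cells of each side. Fosb was on in 2 cells of each side. Npas4, Nr4a2 and Nr4a3, which respond to activity in neurons, were on in no cell of either side.

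**Figure D3:**
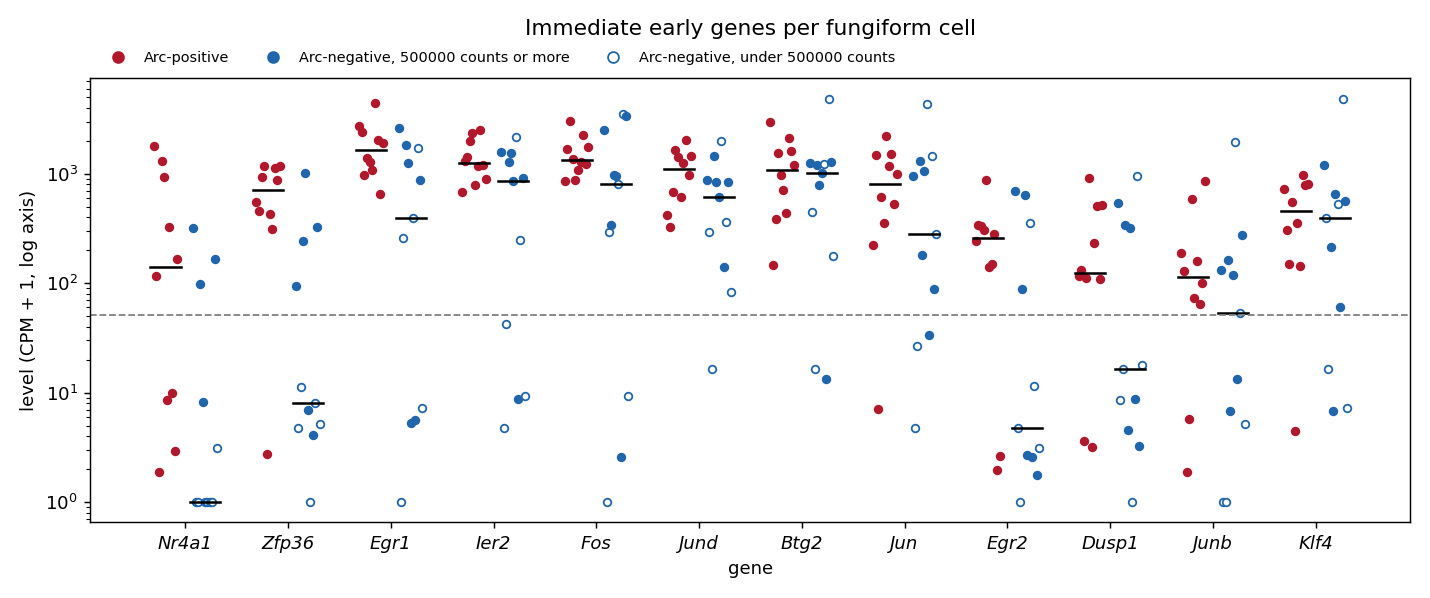
Levels of 12 immediate early genes (CPM + 1, log axis) in each of 10 Arc-positive and 11 Arc-negative cells. Points are cells, black bars are medians and the dashed line is the level for a gene to be called on (50 CPM). All 10 Arc-positive cells lie above the line for Egr1, Ier2 and Fos and 9 of 10 for Zfp36, and Arc-negative cells fall on both sides of it.

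Effectors induced by neuronal activity gave a mixed picture. Of 28 listed, 15 reached 10 CPM, and 6 of the 15 (40%) were higher and 1 (6.67%) lower, with a median log2 ratio of 0.10. Most of the 6 rested on few cells. Rgs2, an inhibitor of Gq signalling, was on in 4 of 10 Arc-positive and 1 of 11 Arc-negative cells, a deep one, at pooled levels of 123 CPM in Arc-positive and 17.3 CPM in Arc-negative cells (log2 ratio 2.29). Homer1, which scaffolds metabotropic glutamate receptors, was on in 2 Arc-positive cells and no Arc-negative cell. The clock gene Per1 was on in 1 Arc-positive and no Arc-negative cell.
Bdnf, the neurotrophin that attracts taste nerve fibres, was on in 8 of 10 Arc-positive and 9 of 11 Arc-negative cells. It ranged over 0, 277 and 897 CPM in Arc-positive cells and over 0, 461 and 1919 CPM in Arc-negative cells. Plk2, a polo-like kinase induced by synaptic activity, was on in every cell, at pooled levels of 875 CPM in Arc-positive and 956 CPM in Arc-negative cells. Neither gene separated the sides.

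Genes upstream of Arc, the kinases and factors that act on its promoter in neurons, showed no shared direction. Of 22 measured, 4 (18.2%) were higher and 3 (13.6%) lower, with a median log2 ratio of 0.11. Mef2d, of the calcium-regulated MEF2 factors that act on Arc in neurons, was on in 6 of 10 Arc-positive and 2 of 11 Arc-negative cells, both deep. It ranged over 0, 88.2 and 388 CPM in Arc-positive cells and over 0, 0.719 and 122 CPM in Arc-negative cells (log2 ratio 1.46, and 0.78 at an Arc limit of 200 CPM). Mapk3 (ERK1) was on in 6 of 10 Arc-positive and 4 of 11 Arc-negative cells, all 4 deep, at pooled levels of 226 CPM in Arc-positive and 106 CPM in Arc-negative cells. Its log2 ratio of 1.03 was under 1 in 8 of the 13 settings.

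In the growth factor and Ras-ERK list, 5 of 14 measured members (35.7%) were higher and 4 (28.6%) lower. Hras and Nras, small GTPases that start the ERK cascade, and the exchange factor Sos1 were among the higher ones. Hras was on in 7 of 10 Arc-positive and 3 of 11 Arc-negative cells (log2 ratio 1.37), and Nras in 4 of 10 Arc-positive and 1 of 11 Arc-negative cells (log2 ratio 2.45). With the Arc limit set at 200 CPM, which leaves 6 Arc-positive and 15 Arc-negative cells, Hras and Nras changed sign, to -0.041 and -0.35, and Sos1 was at 0.28. The adaptor Shc1 was lower, at 13.3 CPM in Arc-positive and 88.9 CPM in Arc-negative cells.

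Proteins that bind or modify Arc in neurons moved in both directions. Of 21 measured, 6 (28.6%) were higher and 5 (23.8%) lower, close to the shares of all genes. Camk2b, the calcium/calmodulin kinase subunit to which Arc binds at inactive synapses, ranged over 0, 719 and 1369 CPM in Arc-positive cells and over 0, 60.8 and 704 CPM in Arc-negative cells. It was on in 8 of 10 Arc-positive and 6 of 11 Arc-negative cells, 4 of them deep, and its log2 ratio was 1.26, and 0.53 at the Arc limit of 200 CPM. Of the other subunits, Camk2g was on in 2 Arc-positive and 3 Arc-negative cells (log2 ratio 1.68, and -3.08 at the Arc limit of 200 CPM). Camk2d was on in no Arc-positive and 3 Arc-negative cells (log2 ratio -3.15).
Members of the AP-2 clathrin adaptor, to which Arc binds, did not move together. Ap2a1 was on in 4 of 10 Arc-positive and no Arc-negative cell (log2 ratio 2.36). Ap2s1 was on in 5 of 10 Arc-positive and 8 of 11 Arc-negative cells, all 6 deep ones included (log2 ratio -1.33), and turned to 0.30 when the Arc limit was 10 CPM, which moves 1 cell to the positive side. Ube3a, a ubiquitin ligase linked to Arc turnover, was on in 4 of 10 Arc-positive and 2 of 11 Arc-negative cells (log2 ratio 1.34, and 0.21 at the Arc limit of 200 CPM).

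The calcium genes gave 4 higher and 4 lower of 23 measured (17.4% each), with a median log2 ratio of -0.02. Calm2, which encodes calmodulin, was on in all but 1 Arc-negative cell. Calm3, which encodes the same protein, was on in 7 of 10 Arc-positive and 3 of 11 Arc-negative cells, at pooled levels of 287 CPM in Arc-positive and 147 CPM in Arc-negative cells. Ppp3cb, a catalytic subunit of the phosphatase calcineurin, was on in 4 of 10 Arc-positive and 2 of 11 Arc-negative cells (log2 ratio 1.70, and 0.54 at the Arc limit of 200 CPM).
The store-operated calcium channel genes Orai1 and Orai3 had log2 ratios of 2.34 and 1.64, and were on in 3 and 4 Arc-positive cells and in 0 and 1 Arc-negative cells. Both were below 0, at -1.21 and -1.002, with the Arc limit of 200 CPM. Stim1, the sensor that opens these channels, was lower (log2 ratio -1.26), on in 5 of 10 Arc-positive and 6 of 11 Arc-negative cells. Atp2a3, the calcium pump that refills the stores, was on in 10 cells of each side, at pooled levels of 2624 CPM in Arc-positive and 1848 CPM in Arc-negative cells.

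The taste transduction cascade was carried by both sides. Of 10 measured genes, 0 were higher and 1 lower (10.0%), and the median log2 ratio was -0.10. Gnat3, which the rule used, ranged over 660, 5356 and 6978 CPM in Arc-positive cells and over 377, 4581 and 8800 CPM in Arc-negative cells. Its G-protein partners Gnb3 and Gng13 had log2 ratios of -0.33 and -0.16. Plcb2, the phospholipase downstream of them, ranged over 1464, 3164 and 7137 CPM in Arc-positive and 237, 2098 and 5248 CPM in Arc-negative cells, a log2 ratio of 0.58. Itpr3, the calcium-release channel, was at 647 CPM in Arc-positive and 655 CPM in Arc-negative cells. Trpm5, the cation channel that depolarises the cell, was on in 9 cells of each side, at pooled levels of 1929 CPM in Arc-positive and 1977 CPM in Arc-negative cells. The 1 lower gene, Trpm4, was on in 1 cell of each side.

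Receptors for sweet, umami and bitter compounds were found on both sides. Tas1r3, which pairs with Tas1r2 for sweet and with Tas1r1 for umami taste, was on in 5 of 10 Arc-positive cells (exact 95% interval 18.7 to 81.3%) and in 3 of 11 Arc-negative cells (6.02 to 60.97%), or 3 of the 6 deep ones. In 1 Arc-positive cell there were 5415 CPM of the umami subunit Tas1r1 with 625 CPM of Tas1r3 and 822 CPM of Kit, a receptor tyrosine kinase. In 1 Arc-negative cell there were 5800 CPM of Tas1r1 with 270 CPM of Tas1r3 and 865 CPM of Kit. The next highest Tas1r1 level on either side was 65.7 CPM.
At least 1 bitter receptor was on in 5 of 10 Arc-positive cells (18.7 to 81.3%) and in 8 of 11 Arc-negative cells (39.03 to 94.0%), or 5 of the 6 deep ones. These intervals describe cells of 1 library and do not compare the sides. The summed Tas2r level ranged over 1.75, 183 and 4075 CPM in Arc-positive cells and over 0, 584 and 3737 CPM in Arc-negative cells. The highest Arc-positive sum was in a cell with 13 Tas2r genes on. Of 14 measured Tas2r genes, 4 (28.6%) were higher and 5 (35.7%) lower. Tas2r105, a cycloheximide receptor, was on in 4 of 10 Arc-positive and 5 of 11 Arc-negative cells (log2 ratio -0.20), and Tas2r106 in 2 of 10 Arc-positive and 3 of 11 Arc-negative cells (log2 ratio -2.14).

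Genes that lead in FP over CV cells, a list taken from these same libraries and so not independent of them, did not move together with Arc. Of 10 measured, 1 (10.0%) was higher and 2 (20%) lower, with a median log2 ratio of 0.49. Tmem45b, a transmembrane protein gene, ranged over 0.955, 512 and 1991 CPM in Arc-positive cells and over 0, 0 and 332 CPM in Arc-negative cells. It was on in 8 of 10 Arc-positive cells and 5 of 11 Arc-negative cells, 4 of them deep. Its log2 ratio was 1.93, and 1.72 to 3.03 under the 13 settings that can move it. Cd44, a hyaluronan receptor, was on in 9 of 10 Arc-positive and 4 of 11 Arc-negative cells, and ranged over 1.91, 470 and 2466 CPM in Arc-positive cells and over 0, 20.6 and 1261 CPM in Arc-negative cells. All 4 of those Arc-negative cells were deep.
Cd59a, an inhibitor of complement, was on in 6 of 10 Arc-positive and 1 of 11 Arc-negative cells, with pooled levels of 117 CPM in Arc-positive and 92.2 CPM in Arc-negative cells. The homeobox gene Tlx1 was on in 3 of 10 Arc-positive and 4 of 11 Arc-negative cells and was lower (log2 ratio -1.76). Pacsin1, an endocytic adaptor, was on in 2 of 10 Arc-positive and 3 of 11 Arc-negative cells and was lower (log2 ratio -1.57, and -0.12 with cells weighted equally).

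**Figure D4:**
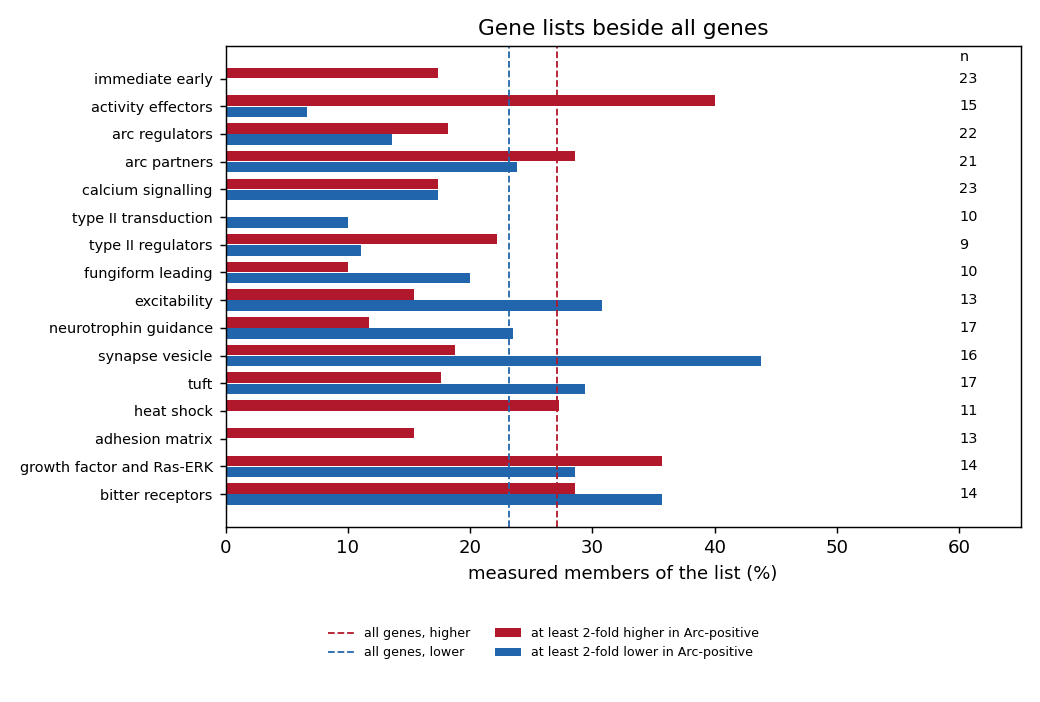
Percent of the measured members of 16 gene lists (those with at least 9) that were at least 2-fold higher or lower in Arc-positive than in Arc-negative cells, by pooled CPM + 10. Dashed lines give the same shares over all 9816 genes, 27.1% higher and 23.2% lower, and n is the number of measured members. Activity effectors exceed the line for higher genes with 6 of 15 members. Growth factor and Ras-ERK genes (35.7%), Arc partners and bitter receptors (28.6% each) and heat shock genes (27.3%) exceed it too. Immediate early genes lie below that line with 4 of 23.

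The remaining lists gave mixed counts. Of 11 measured heat shock genes, 3 (27.3%) were higher and 0 lower. Among these was Hspa5, the chaperone of the endoplasmic reticulum, on in 8 of 10 Arc-positive and 5 of 11 Arc-negative cells (log2 ratio 1.05, and -0.50 at the Arc limit of 200 CPM). The cytosolic chaperone Hsp90ab1 was on in 10 of 10 Arc-positive and 9 of 11 Arc-negative cells (log2 ratio -0.26). Of 16 measured synaptic vesicle and endocytosis genes, 3 (18.8%) were higher and 7 (43.8%) lower, and Vamp2, the vesicle SNARE, was at 966 CPM in Arc-positive and 542 CPM in Arc-negative cells. Of the 7 lower genes, all but Synj1 were on in fewer than 4 cells of either side. Slc2a1, the glucose transporter GLUT1, was on in 7 of 10 Arc-positive and 5 of 11 Arc-negative cells (log2 ratio 1.62, and -0.22 at the Arc limit of 200 CPM). It was 1 of 2 higher among 5 measured sugar-sensing genes, with 0 lower. Of 13 measured adhesion and matrix genes 2 were higher and 0 lower, and Epcam, the epithelial adhesion molecule, was at 1138 CPM in Arc-positive and 610 CPM in Arc-negative cells. Of 17 measured tuft cell genes, which type II cells share, 3 were higher and 5 lower, among the lower ones Il25, a tuft cell cytokine, on in 2 of 10 Arc-positive and 4 of 11 Arc-negative cells. Of 17 measured neurotrophin and axon guidance genes 2 were higher and 4 lower, and Sema7a, a membrane semaphorin, was on in 6 of 10 Arc-positive and 2 of 11 Arc-negative cells (log2 ratio 0.88). Of 13 measured rows for ion channels of excitability 2 were higher and 4 lower, with Scn2a and its older symbol Scn2a1 counted as separate rows. Of 9 measured type II regulators 2 were higher, among them the ETS factor Etv1, on in 2 of 10 Arc-positive and 1 of 11 Arc-negative cells (log2 ratio 1.63), and 1 lower. Of the 3 Tas1r genes 0 were higher and 1 lower.

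The genes whose on and off pattern was most like that of Arc were found by the difference in share of cells on. Of all 9816 genes, 40 were on in a share at least 60 points larger in Arc-positive cells and 1 in a share at least 60 points larger in Arc-negative cells. At 30 points the counts were 1029 genes (10.5%) and 97 genes (0.988%). This excess towards Arc-positive cells goes with the larger number of genes on per Arc-positive cell given above. These genes were picked for their difference, so their values are a description.
Adnp, a homeobox factor of chromatin remodelling, headed the list. It ranged over 0, 184 and 366 CPM in Arc-positive cells and over 0, 0 and 295 CPM in Arc-negative cells, and was on in 9 of 10 Arc-positive and 1 of 11 Arc-negative cells. The ratio of pooled levels was 3.81 (exact 95% interval 3.46 to 4.19, counting error only). Hnrnpc, which binds nascent transcripts, was on in all 10 Arc-positive and 4 of 11 Arc-negative cells, and ranged over 66.6, 186 and 612 CPM in Arc-positive and 0, 5.16 and 152 CPM in Arc-negative cells. Morf4l1, a chromatin subunit with a near-identical pseudogene that could take part of its reads, was on in the same numbers of cells. Adnp, Hnrnpc and Morf4l1 were on in 1, 3 and 4 of the 6 deep Arc-negative cells.
Tbx3, a T-box repressor, was on in 9 of 10 Arc-positive and 3 of 11 Arc-negative cells, with pooled levels of 272 CPM in Arc-positive and 86.1 CPM in Arc-negative cells. The folding cofactor Txndc9, the splicing factor Bcas2 and the retromer subunit Vps35 were each on in 8 of 10 Arc-positive and 2 of 11 Arc-negative cells. Ppp1r14b, a phosphatase inhibitor, Dync1h1, the heavy chain of dynein, Actr1a, the dynactin filament protein, Hspd1, the mitochondrial chaperonin, and Vgll4, a TEAD cofactor, were each on in 7 of 10 Arc-positive and 1 of 11 Arc-negative cells. Dync1h1 and Actr1a had log2 ratios of 3.25 and 3.14, and Ppp1r14b 3.31. Without the Gnat3 limit, which brings in barcodes rich in keratinocyte markers, Ppp1r14b was at -0.18, Hspd1 at 0.41 and Vgll4 at 0.47. At the Arc limit of 200 CPM, Tbx3 was at 0.73, Morf4l1 at 0.46, Actr1a at 0.72 and Hspd1 at 0.24.

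Other genes ran opposite to Arc. The rule for naming asked for at least 100 pooled CPM and for at least 50% of cells on, both on the higher side. It also asked for 2-fold apart with and without the highest cell of that side. By that rule 184 genes were higher and 39 lower. By the size rule alone, 2665 (27.1%) of all 9816 genes were higher and 2275 (23.2%) lower. Set against the 6 deep Arc-negative cells, as given above, more genes were on in a smaller than in a larger share of Arc-positive cells. Crk, an adaptor protein of tyrosine kinase signalling, was on in 1 of 10 Arc-positive and 8 of 11 Arc-negative cells. It ranged over 0, 0.296 and 176 CPM in Arc-positive cells and over 0, 56.8 and 1617 CPM in Arc-negative cells, a pooled ratio of 0.131 (0.115 to 0.149, counting error only). Hnrnph1, a splicing regulator, was on in 4 of 10 Arc-positive and 10 of 11 Arc-negative cells. Both genes were on in at least 5 of the 6 deep Arc-negative cells. At the Arc limit of 200 CPM the log2 ratio of Hnrnph1 was -0.26, against -1.51 in the main split.
Cops4, a subunit of the COP9 signalosome, was on in 1 of 10 Arc-positive cells and in 6 of 11 Arc-negative cells, which were all 6 of the deep ones. Pam16, of the mitochondrial import motor, Pcm1, a centriolar satellite protein, and Med16, a Mediator subunit, were also on in 1 of 10 Arc-positive and 6 of 11 Arc-negative cells. The elongation factor Supt4a and the monoamine oxidase Maoa were on in 2 of 10 Arc-positive and 7 of 11 Arc-negative cells, and the lipid flippase subunit Tmem30a in 3 of 10 Arc-positive and 8 of 11 Arc-negative cells. Idh3g, of the citric acid cycle, Mapkapk2, a kinase downstream of p38, and Psmd2, a proteasome subunit, were on in 2 of 10 Arc-positive and 6 of 11 Arc-negative cells. All 12 lower genes were on in at most 4 of 10 Arc-positive cells. They were picked for a smaller share on that side, so this follows from the choice.

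**Figure D5:**
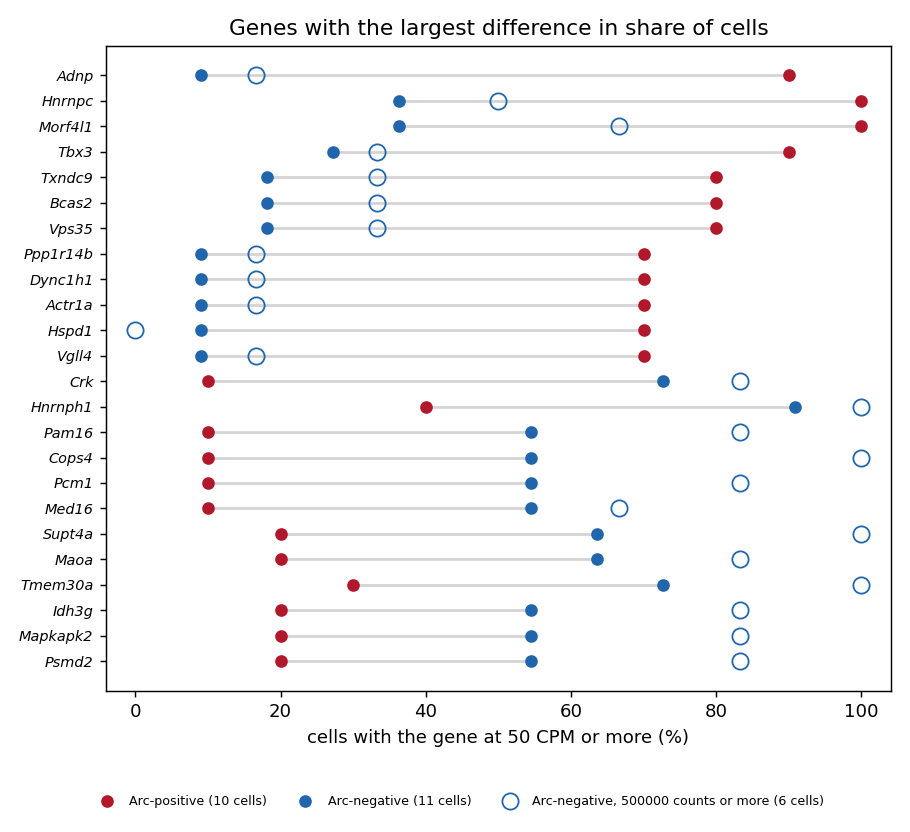
Percent of cells with each of 24 genes at 50 CPM or more, for the 12 genes higher and the 12 lower in Arc-positive cells with the largest difference. Red points are 10 Arc-positive cells, blue points 11 Arc-negative cells and open circles the 6 Arc-negative cells of at least 500000 counts. The genes were chosen for this difference. For all 12 lower genes the deep Arc-negative cells lie at 66.7% or above.

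In CV cells Arc was nearly absent. Each papilla gave a single library, so papilla and library cannot be told apart. Of 32 kept CV cells, 0 had Arc at 50 CPM or more, and a count of 0 still permits 9.38% of cells (3 of 32). The highest CV cell held 122 Arc counts, or 35.4 CPM, in a barcode of 3447628 counts. That cell had 5831 CPM of Fos, 2336 CPM of Egr1, 594 CPM of Nr4a1 and 831 CPM of Zfp36. Fos was on in 13 of 32 CV cells and Jun in 21 of 32, without Arc in any of them at that level.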

How the data were processed

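The authors deposited raw counts of each gene in each barcode as whole numbers, judged from the values. Per the submitters' processing notes, the build was mm10 and the tools included Seurat 2.3.4, Bowtie2 2.3.4.1 and cutadapt 2.10. The series design adds DropletUtils and an error correction of the counts. No source used here says whether copies of a molecule were merged, so counts may hold PCR copies, and intervals cover counting error only.

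Counts were divided by each barcode's total (CPM, here computed) or summed per side and then divided. The Gnat3 limit was read as a natural logarithm, with no limit on mitochondrial or ribosomal RNA counts. Doublets were not called. Cells of 1 library are not replicates, so no p-value was computed. Genes were named when they had at least 100 pooled CPM and were on in at least 50% of cells of the higher side, and were still 2-fold apart without its highest cell, taking the 12 with the largest difference in share of cells on in each direction. Genes from the 18 lists were named at 50 CPM or more on either side. Immediate early, Tas1r and Tas2r genes could always be named. Homer1, Per1, Trpm4 and the markers below that level were named after their values were seen. The members and lists were chosen with earlier results of these data known. The ratio step was tested on simulated data. Python 3.11.15, numpy 2.4.6, pandas 2.3.3, scipy 1.17.1 and matplotlib 3.10.9 were used. Some genes of the lists are not reported here by name.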

Additional observations from a re-analysis of the deposited data

Results flagged for a closer look

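Arc also appeared outside the 21 cells. Among the 8 FP barcodes below the Gnat3 limit, 4 held Arc above the level that 3 counts would give. The first had 95 Arc counts among 306471, or 310 CPM, with 62489 CPM of Krt13 and 3.26 CPM of Gnat3. The second had 22 Arc counts among 201535, or 109 CPM, with 57876 CPM of Krt13 and 9.92 CPM of Gnat3. The other two held 5 Arc counts each, or 1.56 CPM in a barcode of 3199994 counts and 1.23 CPM in a barcode of 4078945 counts. In the CV library, 1 kept cell held 122 Arc counts, or 35.4 CPM, where 3 counts of its total would give 0.870 CPM.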

How the results depend on the processing

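No paired analysis was possible because both sides are cells of 1 library. Across 16 alternatives, of which 2 (cells of at least 500000 counts on both sides, and no cell over 20% mitochondrial counts) were chosen after seeing the data, genes higher numbered 1297 to 3293 and genes lower 1035 to 3243. A filter of 50 CPM on either side gave 1297 higher and 1035 lower, with 2 immediate early genes and 2 effectors higher, because fewer genes entered. Those 2 immediate early genes were 12.5% of 16, against 24.7% of all genes. Of the 16, 3 (the Arc limit of 100 CPM and both filter changes) cannot move the ratio of a single gene. Immediate early genes lower numbered 0 of 23 in the main split, 4 of 26 without the Gnat3 limit, 4 of 24 at 200 CPM and 2 of 17 without the highest cell of each side for each gene. Beside these, 23.2%, 22.5%, 33.4% and 24.8% of all genes were lower. Immediate early genes lower numbered 1 of 23 at an Arc limit of 10 CPM (20.8% of all genes). They numbered 1 of 24 without the deepest cell of each side (24.1% of all genes) and 0 in the other settings. Immediate early genes higher numbered 7 of 23 (30.4%) with an Arc limit of 10 CPM and 7 of 23 (30.4%) after thinning. Without the deepest cell of each side they numbered 7 of 24 (29.2%). The shares of all genes higher in those 3 settings were 32.5%, 34.3% and 32.1%. Effectors higher numbered 3 with Arc limits of 10 or 200 CPM and 3 without the highest cell of each side for each gene. Beside these, 32.5%, 21.8% and 28.9% of all genes were higher. The Arc limit of 200 CPM (6 Arc-positive and 15 Arc-negative cells) gave 2119 higher and 3243 lower. The median of all genes was 0.08, and 0.37 with cells weighted equally and 0.38 after thinning.

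Among genes at least 2-fold apart, directions turned for Hras (-0.041), Nras (-0.35), Orai1 (-1.21), Orai3 (-1.002), Homer1 (-1.31), Slc2a1 (-0.22), Hspa5 (-0.50), Nrp2 (-0.39) and Camk2g (-3.08) at 200 CPM, Ap2s1 (0.30) at 10 CPM, Ppp1r14b (-0.18) without the Gnat3 limit and Maff (-0.093) without its highest cell. Of 40 genes covered that were under 2-fold, 29 changed sign in at least 1 setting, among them Egr1 (-0.057), Calm3 (-0.22), Cd44 (-0.017) and Vamp2 (-0.026) at 200 CPM, and Bdnf (0.60), Gnb3 (0.65) and Tas2r105 (0.63) without the Gnat3 limit. The causes were not tested. In cells of at least 500000 counts on both sides, 4 of 23 immediate early genes (17.4%) were higher. That was below the 27.96% of all genes that were higher in that setting. Genes on in 1 or 2 cells of a side rest on those cells, and shares of 10 or 11 cells carry wide intervals.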
